A study of Mus musculus with 42 samples.

Results

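The insulin receptor to FoxO axis was followed through 9 genes, Insr, Igf1r, Irs1, Irs2, Akt1, Akt2, Foxo1, Foxo3 and Foxo6, out of the 37907 genes measured. They were chosen by name, as the rows whose Ensembl identifiers carry these symbols, and all 9 were found and passed the filter on low values. RNA-seq had been performed on laser-captured tissue from 4 hypothalamic nuclei of adult male C57/BL6 mice, and every mouse was wild type. Fed mice had food ad libitum and fasted mice had none for 24 hours, and no other allele or agent was part of these groups. The arcuate nucleus (ARC) had 5 fed and 5 fasted libraries, the ventromedial hypothalamus (VMH) 6 and 6, the dorsomedial hypothalamus (DMH) 5 and 4, and the paraventricular nucleus (PVN) 6 and 5. The study took the 4 nuclei from serial sections of each brain, so libraries of different nuclei can share a mouse, but the labels do not tie libraries to mice. All libraries were therefore treated as independent, and p-values measure the spread between libraries only.

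Insulin and insulin-like growth factor 1 bind a pair of related receptor tyrosine kinases, encoded by Insr and Igf1r. The receptors phosphorylate adaptor proteins of the insulin receptor substrate family, which recruit phosphatidylinositol 3-kinase and so activate the AKT kinases. AKT phosphorylates the FoxO transcription factors, which then leave the nucleus of the cell and stop driving their target genes. In the hypothalamus this pathway is known for conveying the fed state to neurons that control appetite, and much of its control acts on proteins, which mRNA levels do not show.

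Values are RPKM, the reads of a gene per kilobase of exon, scaled to the reads of the library. Estimated depth averaged 4.56 M reads and ranged from 1.32 to 13.2 M reads, and the fasted DMH libraries were on average deeper than the fed ones. The markers of each nucleus were highest in the tissue labelled with it. In fed mice the summed markers of the ARC reached at least 1010 RPKM there and at most 123 RPKM elsewhere, those of the VMH 175 against 29.5, those of the DMH 115 against 34.7, and those of the PVN 4620 against 177 RPKM. The libraries fell into 3 batches, found from the values, and no fasted DMH library was in the first batch. In captured tissue, fewer cells of a type and less RNA per cell cannot be told apart.

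Both receptor genes were measured well. Insr (ENSMUSG00000005534, GRCm38 chromosome 8, 3122061 to 3279617) lay between 8.41 and 23.0 RPKM, and Igf1r (ENSMUSG00000005533, chromosome 7, 67952827 to 68233668) between 4.35 and 21.5 RPKM. Insr was the higher of the pair in 30 of 42 libraries, with a median ratio of 1.31. This order depended on the nucleus: Insr exceeded Igf1r in 5 of 5 fasted ARC libraries, at a median ratio of 1.87, and in 0 of 5 fasted PVN libraries, at 0.913.

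Igf1r encodes the type 1 receptor for insulin-like growth factors, and it differed most between nuclei among the 9 genes. In fed mice its level was 5.94 ± 1.71 RPKM (SD, n = 5) in the ARC, 9.43 ± 1.27 (n = 5) in the DMH, 11.6 ± 2.51 (n = 6) in the VMH and 16.3 ± 3.47 (n = 6) in the PVN. The fed ARC libraries read 8.75, 6.26, 4.35, 5.09 and 5.24 RPKM. The fed PVN libraries ranged from 12.3 to 21.5 RPKM with a median of 16.3, and so all lay above every fed ARC library. The fed DMH libraries read 8.44, 7.72, 10.5, 10.4 and 10.1 RPKM, all below the PVN but not all above the ARC, and the fed VMH libraries ranged from 8.89 to 15.1 RPKM with a median of 11.3, all above the ARC but overlapping the PVN.

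The differences between nuclei were tested with limma on log2(RPKM + 1) over 33579 genes, and an adjusted p under 0.1 counts as past the threshold. For Igf1r the adjusted p was 5.13e-06 in fed mice and 2.38e-05 in fasted mice, and it passed in all 48 alternative analyses in both states. Fed ARC minus fed PVN was −1.33 ± 0.17 on the log2 scale (SE, adjusted p = 1.35e-06), ARC minus VMH was −0.87 ± 0.17 (adjusted p = 0.000671) and DMH minus PVN was −0.71 ± 0.17 (adjusted p = 0.0139). In the order of fed levels, the neighbours VMH and DMH did not differ beyond their spread (0.26, 95% interval −0.09 to 0.62), and VMH and PVN narrowly missed the threshold (adjusted p = 0.101). ARC and DMH differed by −0.61 (adjusted p = 0.0777), a call lost without ARC-Fed replicate 2, 3, 4 or 5 or DMH-Fed replicate 3, 4 or 5, with adjusted p between 0.105 and 0.234. Within each of the 3 batches the PVN had the highest mean in both nutritional states. The summed level of 6 endothelial markers was also highest in the fed PVN, at 65.1 to 91.5 RPKM against 22.4 to 36.8 in the ARC, 26.4 to 70.7 in the VMH and 26.3 to 43.7 RPKM in the DMH, and its part in the Igf1r and Insr values of the PVN was not tested.

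Insr varied less. The fed means were 11.9 ± 2.36 RPKM for the ARC (SD, n = 5), 11.7 ± 3.06 for the VMH (n = 6), 14.9 ± 1.78 for the DMH (n = 5) and 16.6 ± 1.77 for the PVN (n = 6). The fed VMH libraries ranged from 8.41 to 16.8 RPKM with a median of 11.6, and the fed PVN libraries from 14.2 to 19.3 RPKM with a median of 16.6, so that 1 VMH library, replicate 1, reached into the PVN range. The nuclei of fed mice differed at an adjusted p of 0.0607, and VMH minus PVN was −0.49 ± 0.15 on the log2 scale (SE, adjusted p = 0.0346). None of the other 5 pairs passed. The overall difference was lost without VMH-Fed replicate 2 (adjusted p = 0.116) or 3 (0.117), or without PVN-Fed replicate 1 (0.104), 3 (0.107) or 4 (0.131), and the pair lost its call without VMH-Fed replicate 2 (adjusted p = 0.111). In fasted mice the nuclei did not differ beyond the spread (adjusted p = 0.564).

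**Figure D1:**
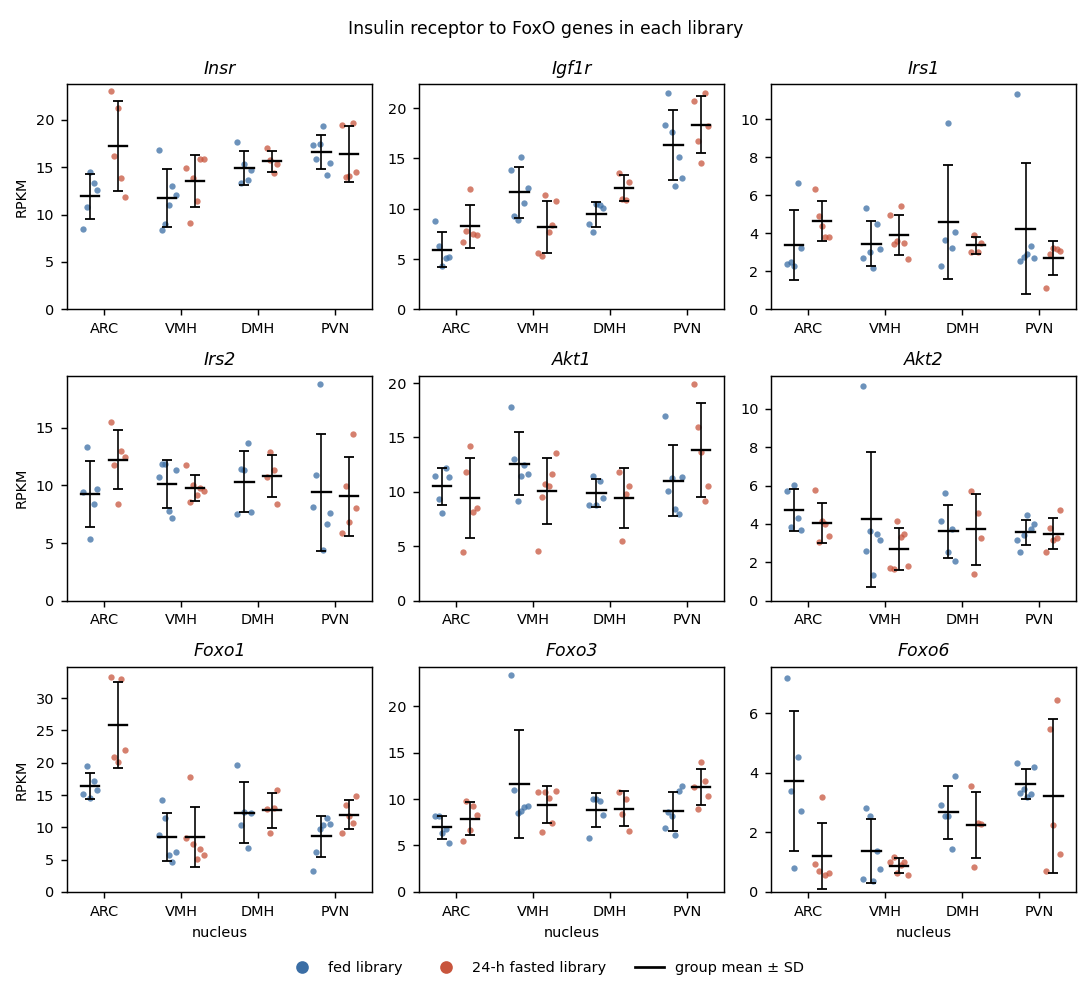
RPKM of each of the 9 genes (vertical axes, each from 0) by nucleus (horizontal axes), with a point for each fed or fasted library and bars for the group mean ± SD. Igf1r rises from 5.94 RPKM in the fed ARC to 16.3 in the fed PVN, and Foxo1 is highest in the ARC, at 16.4 RPKM in fed and 25.8 in fasted mice.

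The adaptor genes Irs1 and Irs2 encode the best known substrates of the receptors. Irs2 (ENSMUSG00000038894, chromosome 8, 10984681 to 11008458) was above Irs1 (ENSMUSG00000055980, chromosome 1, 82233101 to 82291416) in 41 of 42 libraries, with a median ratio of 2.91. Group means of Irs2 lay between 9.05 and 12.2 RPKM, and those of Irs1 between 2.70 and 4.64 RPKM. Neither gene passed the test between the nuclei of fed mice (adjusted p = 1.0 for both) or of fasted mice (adjusted p = 0.729 for Irs2 and 0.528 for Irs1). The reads carry no strand, and 30.9% of the exon length of Irs1 overlaps another gene, Gm9747, which stood at a median of 2.63 RPKM, so the level of Irs1 is uncertain.

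The regulation of Irs2 by FoxO is textbook knowledge, so the start sites of the 9 genes were searched for letters of known FoxO sites and of the E-box CACGTG. RefSeq promoter windows on GRCm38.p6, from 250 bases before to 50 bases after a start, were given for 7 of the 9 genes. Searched on both strands were GTAAACA, a consensus FoxO site, TGTTTTG, the core of an insulin response element, and CACGTG, which reads the same on both strands. Of 32851 mouse promoters of this length, 3.65% held the first, 6.28% the second and 7.15% the third. The windows of Irs1, Irs2 and Akt1 held matches, and these are shown with the matches in capitals because they place the letters relative to the RefSeq start of each window. None of these motifs occurred in the windows of Igf1r, Akt2, Foxo1 or Foxo3. A match describes letters only, and says nothing about a factor being bound.
Irs1, chr1:82291440-82291579, minus strand: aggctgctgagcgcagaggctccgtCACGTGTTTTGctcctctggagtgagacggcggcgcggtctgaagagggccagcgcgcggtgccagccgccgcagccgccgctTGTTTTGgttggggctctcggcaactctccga
Irs2, chr8:11008935-11008998, minus strand: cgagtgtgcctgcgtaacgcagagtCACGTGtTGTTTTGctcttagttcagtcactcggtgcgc
Akt1, chr12:112675014-112675070, minus strand: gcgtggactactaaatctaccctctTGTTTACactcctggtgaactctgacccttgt
In Irs2 the E-box began at −44 from the RefSeq start and the insulin response core followed at −37. That start lies upstream of the start in the gene coordinates given above, 11008458 on the minus strand. In Irs1 they began at −115 and −111 and share letters, and a further response core began at −32. In Akt1 the consensus site lay on the other strand, at −161.

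Akt1 and Akt2 encode kinases that act downstream of phosphatidylinositol 3-kinase, and Akt2 is the isoform best known for insulin action on glucose uptake. Akt1 (ENSMUSG00000001729, chromosome 12, 112653821 to 112674884) had group means between 9.38 and 13.8 RPKM and exceeded Akt2 (ENSMUSG00000004056, chromosome 7, 27591552 to 27640826) in 41 of 42 libraries. Group means of Akt2 lay between 2.70 and 4.71 RPKM. Nuclei did not differ beyond the spread for Akt1 (adjusted p = 0.973 in fed and 0.411 in fasted mice) or Akt2 (0.970 and 0.752). Of the 50-base stretches of Akt2, 9.76% recur in another gene, Akt2-ps, which limits its value to that extent.

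Foxo1 encodes the FoxO factor best known for raising the appetite peptide Agrp in the ARC when insulin is low. The gene (ENSMUSG00000044167, chromosome 3, 52268336 to 52353221) was highest in the ARC, at 16.4 ± 1.98 RPKM (SD, n = 5) in fed mice, followed by the DMH at 12.3 ± 4.69 (n = 5), the PVN at 8.58 ± 3.19 (n = 6) and the VMH at 8.51 ± 3.76 (n = 6). The fed ARC libraries read 15.2, 19.5, 14.5, 17.1 and 15.7 RPKM. The fed PVN libraries, from 3.22 to 11.4 RPKM with a median of 10.1, and the fed VMH libraries, from 4.61 to 14.3 with a median of 7.51, all lay below them. The fed DMH libraries, at 19.6, 10.4, 12.4, 6.78 and 12.2 RPKM, overlapped every other nucleus.

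For Foxo1 the nuclei differed at an adjusted p of 0.0420 in fed mice and 0.000809 in fasted mice. Fed ARC minus VMH was 0.95 ± 0.28 on the log2 scale (SE, adjusted p = 0.0285) and ARC minus PVN was 0.94 ± 0.28 (adjusted p = 0.0536). The neighbours ARC and DMH did not differ beyond the spread (0.45, 95% interval −0.14 to 1.04), nor did VMH and PVN (−0.01, −0.55 to 0.52). The call in fed mice was lost without ARC-Fed replicate 2 (adjusted p = 0.109), and that of ARC minus PVN without ARC-Fed replicate 2 (0.135) or 4 (0.106) or PVN-Fed replicate 1 (0.189) or 2 (0.123). Within batches the fasted ARC was highest in all 3, whereas the fed ARC was highest in batches 2 and 3 and the DMH in batch 1. The summed level of 6 tanycyte and ependymal markers was also highest on average in the ARC, at 13.5 to 21.2 RPKM in fed mice against 6.18 to 15.1 in the other nuclei, and its part in the Foxo1 values was not tested. Exons of Foxo1 overlap another gene, Gm20402, over 7.78% of their length.

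Foxo3 (ENSMUSG00000048756, chromosome 10, 42181841 to 42276755) encodes a FoxO factor known for stress responses and cell survival. Its fed means ran from 6.95 ± 1.24 RPKM (SD, n = 5) in the ARC to 11.6 ± 5.77 (n = 6) in the VMH, with 8.78 ± 1.81 for the DMH (n = 5) and 8.68 ± 2.12 for the PVN (n = 6). The fed VMH libraries read from 8.47 to 23.3 RPKM with a median of 9.20, and replicate 1 alone supplied the high end. The nuclei together did not pass (adjusted p = 0.240 in fed and 0.488 in fasted mice). Fed ARC minus VMH was −0.59 ± 0.20 on the log2 scale (SE, adjusted p = 0.0722). This call was lost without VMH-Fed replicate 1, where the difference was −0.38 (adjusted p = 0.240), without VMH-Fed replicate 2 (0.104), and without ARC-Fed replicate 3 (0.139), 4 (0.12) or 5 (0.186), and with depth as a covariate (0.118).

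Foxo1 exceeded Foxo3 in all 10 ARC libraries, at a median ratio of 2.37 in fed and 3 in fasted mice, but in 3 of the 12 VMH libraries. Foxo6, a FoxO gene known mainly from the brain, was mostly the lowest of the 3, with Foxo3 above it in 42 of 42 libraries and Foxo1 in 41 of 42. The exception was PVN-Fed replicate 1, with 3.22 RPKM for Foxo1 and 4.33 for Foxo6.

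The Foxo6 transcript (ENSMUSG00000052135, chromosome 4, 120267079 to 120287349) was close to the limit of these libraries. A median of 19 reads per library was estimated for it, against 861 for Insr, and 16 of 42 libraries had fewer than 10. Its fed means were 3.72 ± 2.36 RPKM for the ARC (SD, n = 5), 1.38 ± 1.07 for the VMH (n = 6), 2.67 ± 0.885 for the DMH (n = 5) and 3.63 ± 0.5 for the PVN (n = 6). The fed PVN libraries ranged from 3.19 to 4.33 RPKM with a median of 3.39, and the fed VMH libraries from 0.361 to 2.82 RPKM with a median of 1.06, without overlap. VMH minus PVN was −1.08 ± 0.33 on the log2 scale (SE, adjusted p = 0.0353), and without VMH-Fed replicate 4 it was −0.94 (adjusted p = 0.103). The nuclei together narrowly missed the threshold in fed mice (adjusted p = 0.101) and had an adjusted p of 0.200 in fasted mice.

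In all, 3 of the 9 genes differed between the nuclei of fed mice (Igf1r, Foxo1 and Insr), against 12.4% of all genes tested, and 2 of 9 between those of fasted mice (Igf1r and Foxo1), against 11.9% of all genes. The deposited values hold an added count, so short genes can pass the filter on low values without any reads. The shares of all genes, here and below, include such genes, which limits their use as a background for the 9 genes. The 9 genes and the lists below were also chosen with earlier results of these data known, so these shares test neither. By pairs of fed nuclei, 3 of 9 passed between ARC and VMH, where 7.90% of all genes did. Between ARC and DMH it was 1 of 9 (2.79% of all genes), between ARC and PVN 2 of 9 (4.13%), between VMH and DMH 0 of 9 (5.24%), between VMH and PVN 2 of 9 (9.84%), and between DMH and PVN 1 of 9 (3.42%). At an unadjusted p under 0.05, limma gave 2 of 9 genes between VMH and DMH, Insr and Foxo6, where 13.8% of all genes had one. At that level it gave 4 of 9 between ARC and VMH (15.9% of all genes), 1 of 9 between ARC and DMH (11.9%), 3 of 9 between ARC and PVN (11.4%), 3 of 9 between VMH and PVN (16.6%) and 1 of 9 between DMH and PVN (11.9%).

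**Figure D2:**
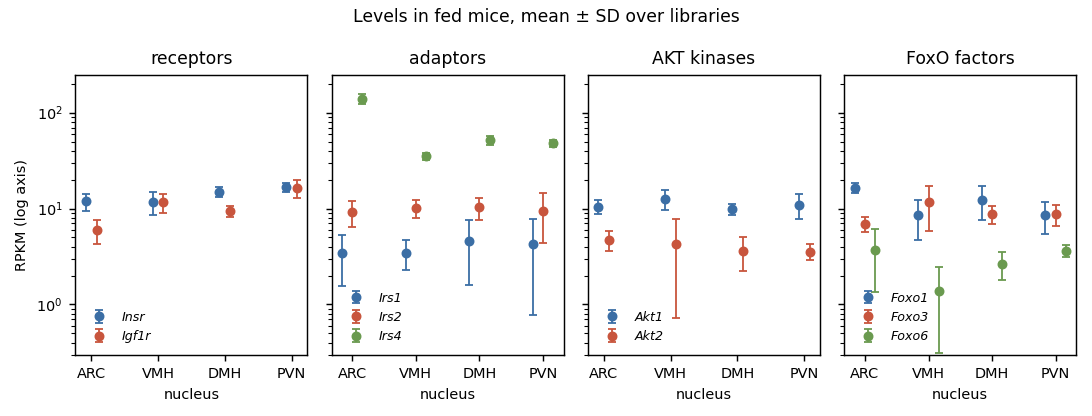
Mean RPKM ± SD over the libraries of fed mice (log axis) by nucleus, for the receptors, the adaptors with Irs4, the AKT kinases Akt1 and Akt2, and the FoxO factors. Irs4 stands above Irs1 and Irs2 in all 4 nuclei and reaches 140 RPKM in the ARC, and Akt1 stands above Akt2 in all 4 nuclei.

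The other genes of the pathway were taken from 9 lists of 83 genes, of which 78 passed the filter on low values. Of these 78, 24 differed between the nuclei of fed mice, where 12.4% of all genes did, and 27 between those of fasted mice (11.9% of all genes). The clearest was Irs4 (chromosome X, 141710998 to 141725263), an adaptor of the same family as Irs1 and Irs2. It stood at 140 ± 17.3 RPKM (SD, n = 5) in the fed ARC, 51.9 ± 5.62 (n = 5) in the DMH, 47.8 ± 3.93 (n = 6) in the PVN and 35.1 ± 3.08 (n = 6) in the VMH. The lowest fed ARC library, at 124 RPKM, was above the highest of any other nucleus, at 58.7 RPKM, and the nuclei differed at an adjusted p of 3.74e-16. Exons of Irs4 overlap another gene over 6.09% of their length.

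The 7 pathway genes next in order of adjusted p came from several steps. Ywhag and Ywhaz, which encode 14-3-3 proteins that hold phosphorylated FoxO outside the nucleus of the cell, were highest in the fed VMH, at 305 ± 11.4 and 668 ± 32.0 RPKM (SD, n = 6). Pik3r3, a regulatory subunit of phosphatidylinositol 3-kinase, was lowest there, at 9.15 ± 2.85 RPKM against 17.5 to 21.7 RPKM in the other nuclei (adjusted p = 8.74e-06). The adaptor Shc1 stood at 4.02 ± 1.81 RPKM in the ARC (n = 5) and 4.11 ± 1.64 in the PVN (n = 6), against 1.15 and 1.11 RPKM in the VMH and DMH. Igf1, the ligand of Igf1r, was low, at 1.66 ± 0.302 RPKM in the fed DMH (n = 5) and under 1 RPKM on average in the other nuclei. The peptide-processing enzyme gene Cpe, a FoxO target, reached 745 ± 40.2 RPKM in the PVN (n = 6), and Ppargc1a, a transcriptional cofactor of FoxO1, was highest there at 19.0 ± 1.57 RPKM.

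Summed neuron markers also varied between nuclei, from 618 to 669 RPKM in the fed ARC to 1240 to 1460 RPKM in the fed VMH, and oligodendrocyte markers from 80.3 to 122 RPKM in the ARC to 209 to 336 RPKM in the VMH. Their part in the differences between nuclei was not tested.

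Fasting was then set against feeding within each nucleus. With limma, 0 of 9 genes passed the threshold in the ARC, where 0.0566% of all genes did, 0 of 9 for the VMH (0.131%), 0 of 9 for the DMH (0.0238%) and 0 of 9 for the PVN (0.0715%). At an unadjusted p under 0.05, limma gave 4 of 9 genes in the ARC, against 7.50% of all genes, and 1 of 9 in the VMH, against 7.31%. It gave 0 of 9 in the DMH (6.48% of all genes) and 0 of 9 in the PVN (5.53%). In the ARC the genes were Insr, Igf1r, Foxo1 and Foxo6, and in the VMH it was Igf1r.

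The fasted and fed libraries did not overlap for Foxo1 in the ARC, 1 of 9 genes where 0.742% of all genes did not overlap, and for Igf1r in the DMH, 1 of 9 against 1.15%. They overlapped for all 9 genes in the VMH (0.277% of all genes did not) and the PVN (0.402%). Exact permutation tests over the libraries, two-sided, were run for 9 genes in 4 nuclei, and the smallest Benjamini-Hochberg adjusted p of the 36 was 0.286. In the ARC and DMH the group sizes allow no exact permutation p below 0.00794. A gene standing alone there could not reach an adjusted p under 0.1 over 36 tests, so this result cannot speak against a change in those nuclei.

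In the fasted ARC, Foxo1 read 33.3, 20.9, 20.1, 33.0 and 21.9 RPKM, all above the fed libraries given above, and its mean was 25.8 ± 6.69 RPKM (SD, n = 5). The difference was 0.60 ± 0.29 on the log2 scale (SE, 95% interval 0.01 to 1.19), with a limma adjusted p of 0.655 and an exact permutation p of 0.00794, the smallest that 5 against 5 allows. The difference was positive in each batch, at 1.08, 0.27 and 0.68, where batch 1 held 1 library of each state. In the PVN the fasted libraries read 9.10, 13.4, 11.7, 10.7 and 14.8 RPKM, within or above the fed range of 3.22 to 11.4, and the difference was 0.50 ± 0.28 (adjusted p = 0.965). For the VMH and DMH it was −0.02 ± 0.26 and 0.08 ± 0.31 (adjusted p = 1.0 for both).

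Insr in the ARC read 8.47, 10.8, 14.5, 13.3 and 12.6 RPKM in fed mice and 23.0, 16.2, 21.2, 13.9 and 11.9 RPKM in fasted mice. The groups overlapped, although 5 of 5 fasted libraries were above the fed mean on the log2 scale. The difference was 0.48 ± 0.17 (SE, adjusted p = 0.529), and by batch it was 1.34, 0.53 and −0.01, so it was near 0 in batch 3. In the other nuclei the differences were 0.20 ± 0.15 (VMH), 0.07 ± 0.18 (DMH) and −0.03 ± 0.16 (PVN).

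The fasting difference of Igf1r was positive in some nuclei and negative in the VMH, and none passed the threshold. In the fasted ARC it read 6.65, 7.83, 12, 7.47 and 7.42 RPKM, overlapping the fed range of 4.35 to 8.75, with a difference of 0.42 ± 0.18 (SE, adjusted p = 0.647). The fasted DMH libraries, at 13.6, 11, 10.9 and 12.7 RPKM, were all above the fed ones, and the difference was 0.33 ± 0.19 (limma adjusted p = 0.920, exact permutation p = 0.0159). Fasted DMH libraries were deeper on average, and with depth as a covariate the difference was 0.27. In the VMH the fasted libraries ranged from 5.28 to 11.4 RPKM with a median of 8.04, and 4 of 6 lay below the lowest fed library at 8.89 RPKM. There the difference was −0.48 ± 0.17 (adjusted p = 0.400). By batch it was −0.94, −0.28 and −0.23 in the VMH, and −0.35, 0.78 and 0.45 in the ARC. The test of whether the fasting difference itself varied between nuclei gave an unadjusted p of 0.00283 and an adjusted p of 0.945 for Igf1r.

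**Figure D3:**
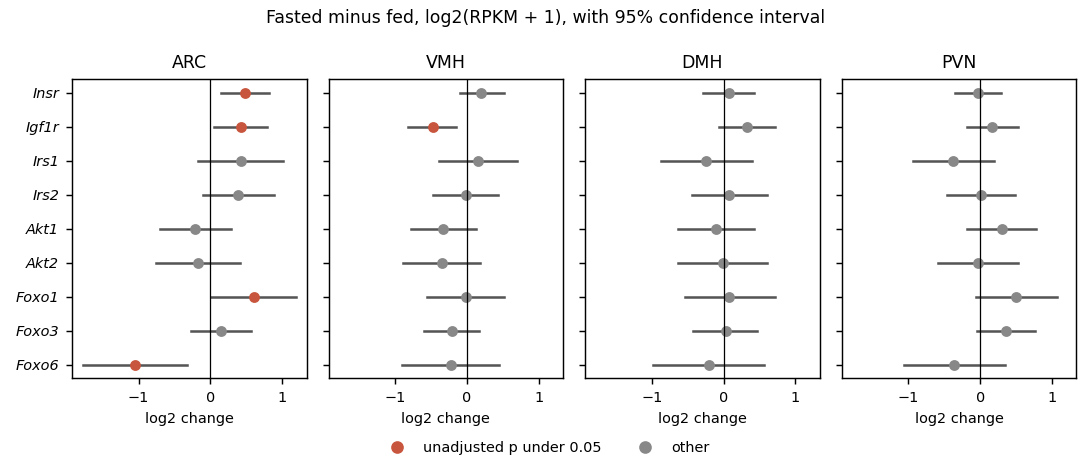
Fasted minus fed difference of log2(RPKM + 1) for each of the 9 genes (rows) in each nucleus (panels), with its 95% confidence interval from limma. Points in red had an unadjusted p under 0.05, 4 in the ARC and 1 in the VMH, and none passed after adjustment over all genes.

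Foxo6 in the ARC read 7.19, 3.38, 0.818, 4.52 and 2.71 RPKM in fed mice and 0.944, 0.705, 3.17, 0.567 and 0.628 RPKM in fasted mice. The groups overlapped through replicate 3 of each. The difference was −1.05 ± 0.36 on the log2 scale (SE, 95% interval −1.78 to −0.32, adjusted p = 0.526), the largest of the 36 in size, and by batch it was −2.08, −0.08 and −1.50. At these levels a value rests on few reads and the fold is poorly resolved. For the VMH, DMH and PVN it was −0.23, −0.21 and −0.36, each with an interval that spanned 0.

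Among the remaining genes, Irs2 in the ARC differed by 0.39 ± 0.24 and Irs1 by 0.42 ± 0.29 (SE, adjusted p = 0.831 and 0.898). Foxo3 in the PVN differed by 0.36 ± 0.20 (adjusted p = 0.965). The AKT genes lay between −0.35 and 0.30 in the 4 nuclei. For most of the 36 differences the 95% interval reached beyond 0.5 in size on the log2 scale, so a change of that size lay within most of these intervals.

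Averaged over the 4 nuclei, the fasting difference was 0.18 ± 0.08 for Insr, 0.29 ± 0.14 for Foxo1 and −0.46 ± 0.18 for Foxo6 (SE), with adjusted p of 0.639, 0.694 and 0.478. These were the 3 of 9 genes with an unadjusted p under 0.05, where 7.14% of all genes had one, and 0 of 9 passed the threshold, against 0.500% of all genes. A mouse can count in several nuclei in this mean, so its SE and p-values may be too small. For the test of whether fasting acted unequally between nuclei, 0 of 9 passed (0.00596% of all genes) and 1 of 9, Igf1r, had an unadjusted p under 0.05 (4.39% of all genes).

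Among the other pathway genes, 3 of 78 passed for the mean fasting difference, 2 higher and 1 lower in fasted mice, with a list median of −0.04 on the log2 scale against 0.0 for all genes tested. By nucleus, 1 of 78 passed in the ARC, 2 of 78 in the VMH, 2 of 78 in the PVN and 0 of 78 in the DMH. At an unadjusted p under 0.05, limma gave 11 of 78 in the ARC, 9 of 78 in the VMH, 7 of 78 in the DMH and 10 of 78 in the PVN, or 14.1%, 11.5%, 8.97% and 12.8%, against the shares of all genes at that level given above (7.50%, 7.31%, 6.48% and 5.53%). The genes that passed were Cdkn1a, Bcl6 and Igfbp5.

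Cdkn1a and Bcl6 are on the list of 22 FoxO target genes, 19 of them tested. For the mean fasting difference 2 of the 19 rose and 0 fell past the threshold, where 0.500% of all genes passed. The list median was 0.035, and 6 of 19 (31.6%) had an unadjusted p under 0.05 by limma, against 7.14% of all genes. The list was not divided by the direction in which FoxO acts on its targets. It was chosen with earlier results of these data known, so these shares do not test the list. Cdkn1a (chromosome 17, 29090976 to 29100727) encodes the cell cycle inhibitor p21. Its fed ARC libraries read 2.90, 7.95, 1.58, 2.22 and 6.12 RPKM and its fasted ones 12.4, 20.9, 18.1, 21.9 and 11.6 RPKM, without overlap. In the PVN the fed libraries ranged from 4.60 to 8.86 RPKM with a median of 6.08, and the fasted ones read 49.0, 25.3, 31.3, 17.3 and 13.7 RPKM. Fasted and fed groups also did not overlap in the DMH, but did in the VMH. Cdkn1a rose by 1.92 ± 0.39 in the ARC (SE, adjusted p = 0.0613), by 1.58 ± 0.36 in the VMH (0.0897) and by 1.81 ± 0.38 in the PVN (0.0573), and the DMH difference was 1.34 ± 0.42 (adjusted p = 0.437). Its mean change was 1.67 ± 0.19 (adjusted p = 2.29e-06). Exons of Cdkn1a overlap another gene over 7.68% of their length.

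Bcl6 (chromosome 16, 23965052 to 23988852) encodes a transcriptional repressor. In the VMH its fed libraries ranged from 4.93 to 8.17 RPKM with a median of 6.85 and its fasted ones from 10.9 to 20.6 RPKM with a median of 13.2, without overlap. It rose by 0.97 ± 0.18 in the VMH (SE, adjusted p = 0.0290) and by 0.86 ± 0.19 in the PVN (0.0922), while the differences were 0.97 ± 0.21 in the DMH (0.129) and 0.47 ± 0.20 in the ARC (0.647). The mean change was 0.82 ± 0.10 (adjusted p = 2.90e-06). The test of an unequal response between nuclei did not pass for either gene (adjusted p = 1.0 for both). The mean changes of Cdkn1a and Bcl6 passed in all 48 alternatives. None of the alternatives could group libraries by mouse, so the SE and adjusted p of these mean changes may be too small.

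The calls within single nuclei were less stable. With each nucleus fitted on its own libraries the adjusted p was 0.590, 0.919 and 0.404 for Cdkn1a in the ARC, VMH and PVN, and 0.369 and 0.636 for Bcl6 in the VMH and PVN. Cdkn1a lost its ARC call without ARC-Fast replicate 1, 2 or 4 or ARC-Fed replicate 1, 3 or 4 (adjusted p up to 0.167), and its PVN call without PVN-Fast replicate 1, 2 or 3 or PVN-Fed replicate 1, 3, 4 or 5 (up to 0.239). It lost its VMH call without VMH-Fast replicate 2, 3, 4 or 5 or VMH-Fed replicate 1, 3, 4 or 5 (up to 0.261). That call was also lost without some single libraries of the other nuclei (up to 0.107). With a pseudocount of 0.1 the adjusted p of Cdkn1a was 0.133 in the ARC and 0.181 in the PVN, and with array weights it was 0.190 in the VMH. Bcl6 lost its PVN call without PVN-Fast replicate 1, 2 or 3 or PVN-Fed replicate 4, 5 or 6 (up to 0.261). The same call was lost without some single libraries of other nuclei (up to 0.113). Bcl6 in the DMH, not called in the main fit, passed in 4 of 16 alternatives with a changed setting or a DMH library left out. There the adjusted p ranged from 0.0334 to 0.775.

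The 4 FoxO targets with the highest mean level did not pass for the mean over nuclei. These were Cpe, at −0.06 ± 0.04 (SE, adjusted p = 0.844), Sod2, a mitochondrial enzyme against oxidative stress, at −0.02 ± 0.06 (1.0), the stress-response gene Sesn3 at −0.18 ± 0.07 (0.552), and the transcriptional cofactor gene Cited2 at 0.38 ± 0.10 (0.134).

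Igfbp5 (chromosome 1, 72857932 to 72874884) encodes a binding protein of insulin-like growth factors. It fell by 0.67 ± 0.14 on the log2 scale in the mean over nuclei (SE, adjusted p = 0.0151), and this passed in all 48 alternatives. The limit of libraries that can share a mouse applies here too. Within single nuclei it did not pass, with means of 26.0 ± 16.7 RPKM in fed and 10.9 ± 4.29 in fasted ARC (SD, n = 5 each), 19.2 ± 4.86 and 11.3 ± 1.93 in the VMH (n = 6 each), 28.4 ± 8.53 (n = 5) and 21.7 ± 3.31 (n = 4) in the DMH, and 12.4 ± 2.27 (n = 6) and 8.01 ± 1.32 (n = 5) in the PVN. Fasted was lower than fed on average in all 4 nuclei.

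**Figure D4:**
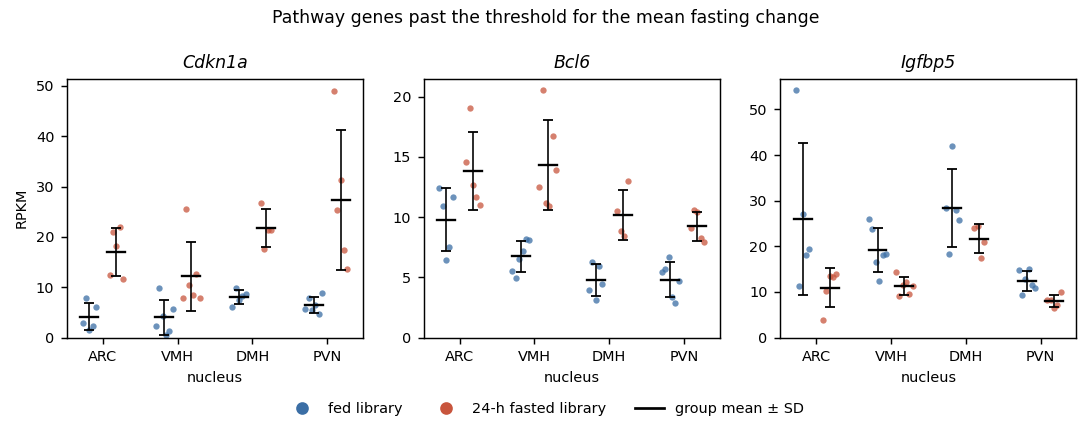
RPKM of Cdkn1a, Bcl6 and Igfbp5 (vertical axes, each from 0) by nucleus, with a point for each fed or fasted library and bars for the group mean ± SD. Fasted Cdkn1a means lie between 12.1 and 27.3 RPKM against 3.99 to 8.01 in fed mice, and fasted Igfbp5 means lie below the fed ones in all 4 nuclei.

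The steps between receptor and FoxO were counted by list for the mean fasting difference, for which 0.500% of all genes passed. At an unadjusted p under 0.05 limma gave 7.14% of all genes and 15 of all 78 pathway genes tested (19.2%). These lists too were chosen with earlier results of these data known, so the shares do not test them. Among the PI3K subunits, 0 of 7 passed for the mean fasting difference (2 at an unadjusted p under 0.05), and among phosphatases and AKT inhibitors 0 of 6 (0 at that level). Of the other kinases and the mTOR branch it was 0 of 15 (2), of the other adaptors 0 of 7 (2), of the inhibitors of receptor and adaptor 0 of 6 (1), of the other FoxO genes and cofactors 0 of 7 (0), and of other receptors 0 of 1 (0). Of the 10 ligands and binding proteins, Igfbp5 was the one that passed (2 at an unadjusted p under 0.05). Among the most abundant of these genes the mean difference was 0.05 ± 0.07 for Pik3r1, a regulatory PI3K subunit, −0.05 ± 0.04 for the AKT substrate gene Gsk3b and −0.04 ± 0.04 for Grb10, an adaptor that restrains the receptors (SE, adjusted p between 0.844 and 0.917).

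For each of the 9 genes, the genes with the most similar pattern over the 42 libraries were found by Pearson correlation of log2(RPKM + 1) among 29513 genes. These libraries share nucleus, nutritional state and depth, so the values are descriptions. Igf1r was most like Arnt2 (r = 0.860), Sema3c (0.843) and Zic1 (0.826), and Foxo1 most like Gabre (0.736), Atp7a (0.728) and Slc6a3 (0.721). For Akt1 the closest were Bmyc (0.707), Iqcc (0.683) and C1ql1 (0.644), for Irs1 they were Gm24004 (0.664), Scarna8 (0.649) and Gm11467 (0.646), and for Insr they were Phf1 (0.650), Cttn (0.637) and Ercc5 (0.620). The closest genes of Foxo3 were Gm12239 (0.642), Tmem200b (0.636) and Efna2 (0.625), and those of Foxo6 were Pik3r3 (0.630), Chil1 (0.613) and Cdhr1 (0.613). Akt2 was most like Med1 (0.613), Rabl3 (0.610) and Tmem138 (0.608), and Irs2 like Nipbl (0.603), Ppfibp2 (0.558) and Sik2 (0.556). The highest values were those of Igf1r and Foxo1, the genes that differed between nuclei in both states. Close behind Foxo1 came Akt1 (0.707), which passed between nuclei in neither state.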

How the data were processed

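RNA from laser-captured nuclei (2 nutritional states, 4 nuclei, 42 libraries) had been amplified with NuGEN Ovation chemistry and sequenced from libraries that do not mark strand. Per the labels, the tools included CASAVA 1.7, TopHat2 2.0.11, Cufflinks 2.2.1, edgeR and limma, with genome build GRCm38, and the methods state that outlier samples were removed. The authors deposited RPKM values per Ensembl gene, with no value at 0. How reads were turned into these values is not given in full in the sources used here. Recurring lowest values showed 3 sets of libraries (batches) whose means had been removed, and an added count averaging 4.99 reads (1.45 to 14.5). From it and exon lengths, depth was estimated, and low values fell within 0.02 reads of a whole number in 97.6% to 98.8% of cases per library. Low values were those above the no-read value by less than 10.5 reads and under 4 times it.

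Symbols and coordinates came from GENCODE M21, which matched 35965 IDs and left 1942 unnamed. In R 4.3.3, limma 3.58.1 was fitted to log2(RPKM + 1) for genes with at least 1 RPKM in at least 4 libraries, with a mean for each of the 8 groups, an intensity trend, two-sided tests and Benjamini-Hochberg adjustment over all 33579 genes. No batch term was fitted although batch means had been removed from the values, so the spread may be understated and p-values may be too small. The threshold was an adjusted p under 0.1. Where the study fitted counts, limma took its place because the values are RPKM. The fit was tested on simulated data for the ARC comparison (33579 genes), in which 200 genes were changed. Of 105 genes given a log2 change of 1 it called 77.1%, of 95 given 2 it called 97.9%, and 24 calls were false. In the measured values 19 genes passed between fasted and fed ARC. The adjusted p depends on how many genes change, so these shares do not show how often the fasting tests would find such changes.

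The 9 genes, the lists and the tests were chosen with earlier results of these data known. Named beside them are pathway genes past the threshold for fasting, the 8 with the smallest adjusted p between fed nuclei, up to 4 of highest mean level per list, and the 3 genes most like each of the 9. Alternatives were a pseudocount of 0.1, no filter, common medians, array weights, depth as a covariate, a replicate block, each library left out, and each nucleus fitted alone. Some genes of the lists are not reported here by name.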

Additional observations from a re-analysis of the deposited data

Results flagged for a closer look

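Single libraries stood far from the rest of their group, by Dixon's test at the 95% level, in 9 of the 72 groups of the 9 genes, where chance gives about 3.6, since it marks about 1 group in 20. For Irs1 there were 4: ARC-Fed replicate 4 at 6.633 RPKM (others 2.30 to 3.22), DMH-Fed replicate 3 at 9.814 (2.28 to 4.05), PVN-Fed replicate 1 at 11.34 (2.55 to 3.31) and PVN-Fast replicate 1 at 1.115 (2.91 to 3.21). Irs1 is also the gene that shares the most exon length with another gene, and the part of that overlap was not tested. In VMH-Fed replicate 1, a library of 2.03 M estimated reads, Akt2 stood at 11.23 RPKM (others 1.33 to 3.61) and Foxo3 at 23.28 (8.47 to 11). In VMH-Fast replicate 2, of 2.06 M reads, Foxo1 stood at 17.78 RPKM (others 5.03 to 8.29) and Cdkn1a at 25.57 (7.77 to 12.7). The part of depth in these values was not tested. ARC-Fast replicate 3 stood high for Igf1r, at 12 RPKM (others 6.65 to 7.83), and for Foxo6, at 3.171 (0.567 to 0.944).

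Among 88 groups of 11 other pathway genes, 6 libraries stood apart where chance gives about 4.4. Beside Cdkn1a these were Igf1 in VMH-Fed replicate 4 at 1.064 RPKM (others 0.161 to 0.423), VMH-Fast replicate 5 at 0.1303 (0.454 to 0.551) and PVN-Fed replicate 2 at 1.833 (0.368 to 0.714), Ppargc1a in PVN-Fast replicate 2 at 15.1 (18.9 to 20.3), and Ywhag in DMH-Fed replicate 2 at 257.9 (204 to 219).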

How the results depend on the processing

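No fasting comparison had any of the 9 genes past the threshold under any alternative, and the count between the nuclei of fed mice stayed between 2 and 4. Same-numbered libraries did not deviate together (correlations −0.139 to 0.0899, with 0 pairs over 0.1). Group means and batch means had been removed from these values, so the correlations cannot show whether libraries share a mouse. The replicate block used the number in the label of each library, which is not tied to a mouse and does not follow the batches. It therefore accounts for neither. With the replicate block the count was 0 between fed ARC and DMH (1 without it), and 1 between fed ARC and PVN (2 without it). Of the calls given above for the 9 genes and for Cdkn1a, Bcl6 and Igfbp5, those lost with the block were Igf1r between ARC and DMH (adjusted p = 0.125), Foxo1 between ARC and PVN (0.159), Foxo1 over the nuclei of fed mice (0.158), Foxo3 between ARC and VMH (0.188) and, for fasting, Bcl6 in the PVN (0.105), by limma. Leaving out a library at a time gave 0 to 1 of 9 genes between ARC and DMH, 1 to 3 between ARC and PVN, and 1 to 3 between VMH and PVN of fed mice. Uncalled fasting differences that turned in sign were small. With array weights Insr in the PVN was 0.0061 and Akt2 in the DMH 0.12. Leaving out a library at a time, the range was −0.10 to 0.02 for Insr in the PVN, −0.40 to 0.03 for Irs1 in the DMH, and −0.36 to 0.0013 for Akt1 in the ARC and −0.22 to 0.11 in the DMH. It was −0.11 to 0.02 for Irs2 in the VMH, −0.01 to 0.19 in the DMH and −0.16 to 0.23 in the PVN. For Akt2 it was −0.21 to 0.28 in the DMH and −0.12 to 0.05 in the PVN. For Foxo1 it was −0.24 to 0.13 in the VMH and −0.09 to 0.26 in the DMH. Foxo3 and Foxo6 in the DMH ranged from −0.10 to 0.15 and from −0.40 to 0.04. The causes were not tested. With single libraries left out, Cdkn1a was higher in fasted mice by 1.71 to 2.16 in the ARC and 1.58 to 2.02 in the PVN.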
